A study of Mus musculus with 19 samples.

Results

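Ing5 encodes a member of the ING (inhibitor of growth) family of chromatin proteins and was examined here together with the other 4 ING genes, Ing4, Ing1, Ing2 and Ing3, and with 5 genes for the acetyltransferase complexes that ING proteins join, Kat7, Kat6a, Brpf1, Meaf6 and Jade1. These 10 genes, of 53379 gene rows in the table, were picked by symbol, and the reason for the choice was that Ing5 stands high in Alyref KO morulae in these same embryos. The comparison of Alyref KO with non-KO morulae is therefore a description without a test for all 10. PolyA RNA had been sequenced from 19 single mouse embryos of the B6D2F1 strain, made by in vitro fertilisation and collected at 96 h after insemination from culture in KSOM, an embryo medium. Sperm and oocytes came from Alyref+/- parents (2 morulae labelled Alyref KO, and 3 morulae and 3 blastocysts that are non-KO), from Gabpb1+/- parents (3 morulae labelled Gabpb1 KO, and 2 morulae and 3 blastocysts that are non-KO) or from wild-type (WT) mice (3 blastocysts). Embryos called non-KO are WT or heterozygous. The submitters called an embryo KO when its own library had no reads over the deleted stretch, so the genotype was read from the same RNA. No KO blastocyst was analysed here, and which parents an embryo came from is not given in the sources used here.

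ING proteins carry a PHD finger that binds histone H3 trimethylated at lysine 4, a mark of active promoters. ING4 and ING5 bring this finger to the HBO1 complex, in which KAT7 is the acetyltransferase, MEAF6 a small shared subunit, and a JADE or BRPF protein the scaffold that steers acetylation to histone H4 or to histone H3. ING5 also joins the MOZ complex of KAT6A with BRPF1 and MEAF6, whereas ING3 belongs to the TIP60 (NuA4) acetyltransferase complex and ING1 and ING2 to SIN3-HDAC complexes, which remove acetyl groups.

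The targeted genes and the depth were looked at first. Levels are given in CPM, a gene's count per M gene counts of the embryo after scaling between embryos. Alyref stood at 47.8 and 58.5 CPM in the 2 Alyref KO morulae against 161 to 301 CPM in the other 17 embryos. Gabpb1 stood at 78.2, 259 and 151 CPM in the 3 morulae labelled Gabpb1 KO and at 93.8 and 83.3 CPM in the 2 that are non-KO, so its RNA was not lower under that label; whether a gene count sees the deleted stretch was not tested. Gene counts summed to between 7.49 and 31.5 M an embryo, and the 10 genes lay at 7.25 to 173 CPM. Of the lists of marker genes, 8 trophectoderm genes summed to 349 to 4555 CPM in morulae and 4735 to 7524 CPM in blastocysts. Genes of cumulus cells, which can cling to an oocyte, summed to 2.49 to 24.0 CPM over 6 genes in morulae and 2.21 to 9.47 CPM in blastocysts. Of these, the receptor gene Fshr was at 0 in all 19 embryos, while Amhr2 was detected in every embryo. In non-KO Alyref cross morula 1 the other 5 were at 0 and Amhr2 made up the whole 17.2 CPM. In RNA of whole embryos, fewer cells of a type and less RNA per cell cannot be told apart.

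Ing5 (ENSMUSG00000026283.13, GRCm38 chromosome 1, 93803965 to 93822101, plus strand) was at 106 and 124 CPM in the 2 Alyref KO morulae. The 3 non-KO morulae of the same cross held 35.0, 28.6 and 47.1 CPM. Both KO embryos were above every non-KO embryo, and the lowest of them was 2.25 times the highest of the other 17 embryos. The fitted log2 fold change was 1.64, a fold of 3.11, and ranged from 1.49 to 1.85 over the alternative settings. Ing5 varied least among blastocysts: the 9 embryos of the 3 crosses lay between 32.2 and 37.6 CPM, with a coefficient of variation of 5.57%, the smallest of the 10 genes.

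The other genes whose 2 KO values lay apart from all 3 non-KO values were Ing3 and Meaf6, which were higher, and Ing4 and Jade1, which were lower. Together with Ing5 that makes 3 of 10 higher and 2 of 10 lower, where 12.5% and 12.3% of the 18410 genes tested were so arranged. By edgeR's adjusted p, 1 of the 10 was called, Ing5, where 0.228% of all genes were called. Since this contrast set the choice, nothing is read from either count. The median log2 fold change of the 10 was -0.06, beside -0.04 over all genes tested.

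**Figure D1:**
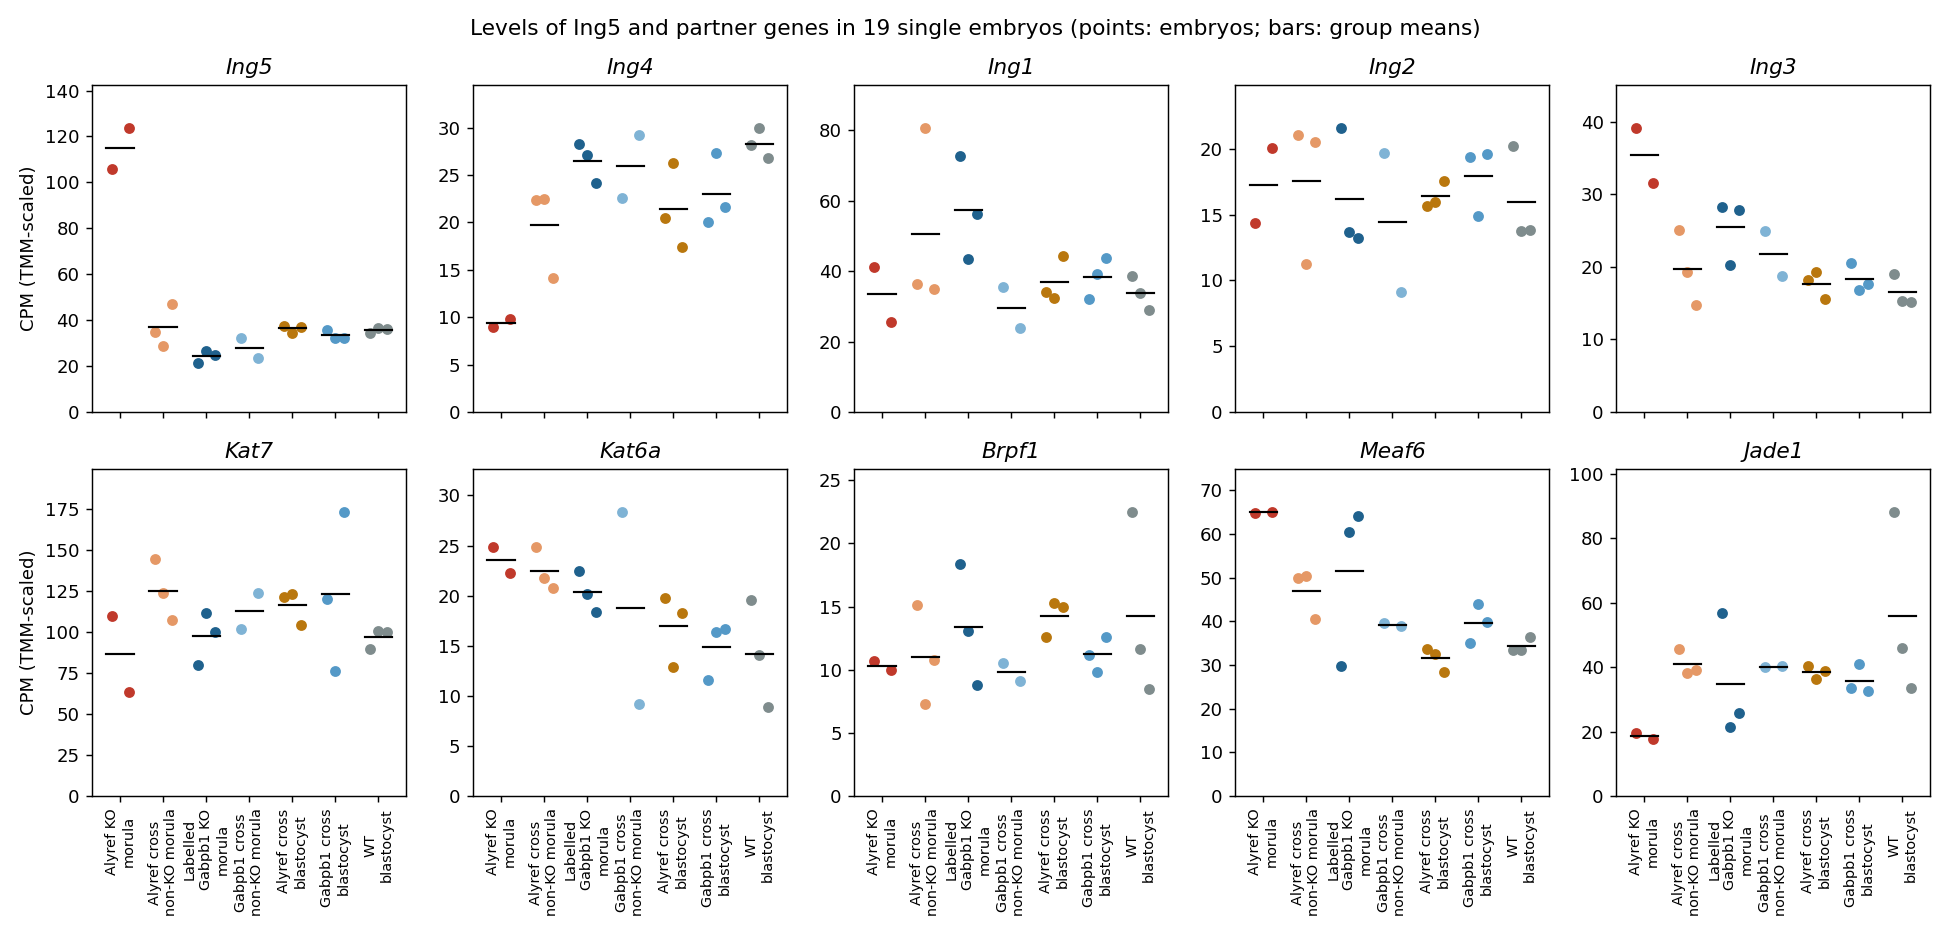
CPM of the 10 genes in each of the 19 embryos (vertical axis, a scale per gene), by group (horizontal axis); each point is 1 embryo and each short line the group mean. Ing5 reaches 106 and 124 CPM in the 2 Alyref KO morulae and stays between 21.2 and 47.1 CPM in the other 17 embryos, while Ing4 is lowest in the same 2.

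The promoter of Ing5 is shown because the other genes were chosen around it, that of Ing4 because its values move against those of Ing5, and those of Ing4 and Kat7 also because they alone among the promoters searched hold the ETS-type motif CCGGAAGT, which GABP, the factor with GABPB1 as a subunit, binds. Each is 300 bases from RefSeq's table for GRCm38.p6, from 250 bases before the annotated start onward, 5′ to 3′ on the gene's strand, with the motif in capitals on whichever strand it lies.
Ing5, chr1:93803715-93804014, plus strand: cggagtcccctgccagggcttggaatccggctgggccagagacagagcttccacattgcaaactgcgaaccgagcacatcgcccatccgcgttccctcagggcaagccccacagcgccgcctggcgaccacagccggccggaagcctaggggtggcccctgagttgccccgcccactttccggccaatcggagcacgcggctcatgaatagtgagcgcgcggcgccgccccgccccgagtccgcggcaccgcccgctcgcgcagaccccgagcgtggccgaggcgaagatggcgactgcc
Ing4, chr6:125039598-125039897, plus strand: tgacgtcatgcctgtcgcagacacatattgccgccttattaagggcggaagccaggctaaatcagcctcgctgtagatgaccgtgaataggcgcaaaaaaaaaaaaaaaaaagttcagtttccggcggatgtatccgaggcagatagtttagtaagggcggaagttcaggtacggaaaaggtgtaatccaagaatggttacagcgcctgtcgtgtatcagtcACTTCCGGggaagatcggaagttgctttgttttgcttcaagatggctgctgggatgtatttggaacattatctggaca
Kat7, chr11:95310197-95310496, minus strand: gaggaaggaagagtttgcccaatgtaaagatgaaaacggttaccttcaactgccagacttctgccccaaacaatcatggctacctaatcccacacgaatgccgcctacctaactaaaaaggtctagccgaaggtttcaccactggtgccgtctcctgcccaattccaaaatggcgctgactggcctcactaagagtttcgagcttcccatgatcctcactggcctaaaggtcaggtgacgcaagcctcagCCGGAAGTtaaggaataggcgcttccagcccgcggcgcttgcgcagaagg
The Ing5 window is 71.0% G and C with 35 CpG pairs, against 46.7% and 16 for Ing4 and 53.0% and 14 for Kat7. The table held 17 promoters for 9 of the 10 genes, since several have more than 1 start, and Kat6a had no entry. CCGGAAGT or its complement ACTTCCGG was found in 2 of these 17 and in 1277 of all 32851 promoters in the table, 3.89%. In Ing4 it lies on the complementary strand with its first base at -28 from the start, and in Kat7 on the given strand at 0, the start itself. Only exact matches were searched, so strings that differ in a base, such as ccggaagc in the Ing5 window, were not counted. A match is a stretch of letters and not a site shown to be bound.

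Ing4, the other ING subunit of HBO1, was lower where Ing5 was higher. It stood at 8.98 and 9.80 CPM in the Alyref KO morulae and at 22.4, 22.5 and 14.2 CPM in the non-KO morulae. The 2 KO values were the lowest of all 19 embryos, and the lowest other embryo was 1.45 times the higher of them. The log2 fold change was -1.07. Over the 19 embryos Ing4 was last of the 11424 genes compared in likeness to Ing5, with a Pearson r of -0.89 between log2 levels. That rank includes the 2 Alyref KO morulae, which set the choice of Ing5. Without them r of Ing4 was -0.60 over 17 embryos (rank 11200 of 11424), and Ing3 was more negative at -0.65. Over the 14 embryos that are no Alyref cross morulae r of Ing4 was -0.43 (rank 8916). Ing3 at -0.70 and Ing1 at -0.47 were more negative there, so the opposition was not particular to Ing4. These points share stages and crosses, and r is a description. The count of Ing4 is uncertain, because the transcript Gm44597 on the same strand shares 1855 of the 5320 exon bases of Ing4, 34.9%. Its own count was 0.871 to 1.18 times that of Ing4 across the embryos. Whether reads over the shared bases were counted for either gene was not tested.

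**Figure D2:**
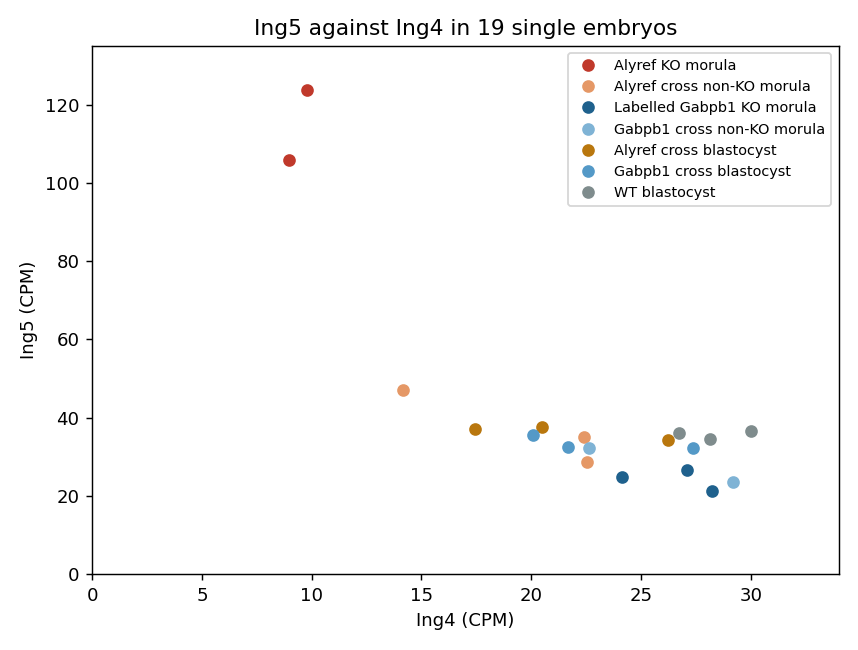
Ing5 (vertical axis, CPM) against Ing4 (horizontal axis, CPM) in 19 embryos, each point 1 embryo coloured by group. The 2 Alyref KO morulae lie alone at the upper left with Ing4 under 10 CPM and Ing5 over 100 CPM.

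Of the remaining ING genes, Ing3, the reader subunit of TIP60, was at 39.2 and 31.5 CPM in Alyref KO morulae. Its non-KO morulae were at 25.1, 19.3 and 14.8 CPM, and the lower KO embryo was 1.12 times the highest of the other 17 embryos. The log2 fold change was 0.84. Ing1, of the SIN3-HDAC complexes, was at 41.3 and 25.5 CPM against 36.3, 80.8 and 34.9 CPM, and Ing2, of the same complexes, at 14.4 and 20.1 CPM against 21.0, 11.2 and 20.5 CPM. In both genes the groups overlapped, with log2 fold changes of -0.60 and -0.03. The value for Ing1 hung on single embryos: it was -0.076 without non-KO embryo 2, -0.98 without KO embryo 1 and -0.31 without KO embryo 2.

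The make-up of the ING family per exon length was described by group. Counts scaled to exon length and depth (FPKM, fragments per kilobase per M) were summed over the 5 genes in each embryo, and each gene was expressed as a share of that sum. Ing5 made up 49.6% ± 5.79 (SD, n = 2) of ING FPKM in Alyref KO morulae and 22.1% ± 7.98 (n = 3) in non-KO morulae. Ing4 made up 3.61% ± 0.243 and 10.2% ± 2.05. In each of the 6 other groups Ing1 held the largest mean share, from 30.0% to 44.4%, and in Alyref KO morulae it held 20.0%. The Alyref KO shares use the Ing5 values that set the choice. Since all shares are parts of the same sum, a high Ing5 lowers the others. The CPM of Ing1 itself overlapped between Alyref KO and non-KO morulae. The FPKM of Ing5, averaged over the 17 other embryos, was 6.93 ± 1.45 (SD), below Kat7 at 20.2, Ing1 at 12.2 and Meaf6 at 7.75 and above Ing2 at 5.51. The step from Meaf6 to Ing5 was within their spread, as Meaf6 was the higher in 9 of 17 embryos. Jade1 at 4.87, Ing4 at 4.52 and Ing3 at 4.13 followed, with no order between Jade1 and Ing4 beyond their spread (Jade1 higher in 9 of 17 embryos). Kat6a at 1.95 and Brpf1 at 1.86 were lowest, the latter pair with no order beyond their spread (Kat6a higher in 8 of 17 embryos).

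**Figure D3:**
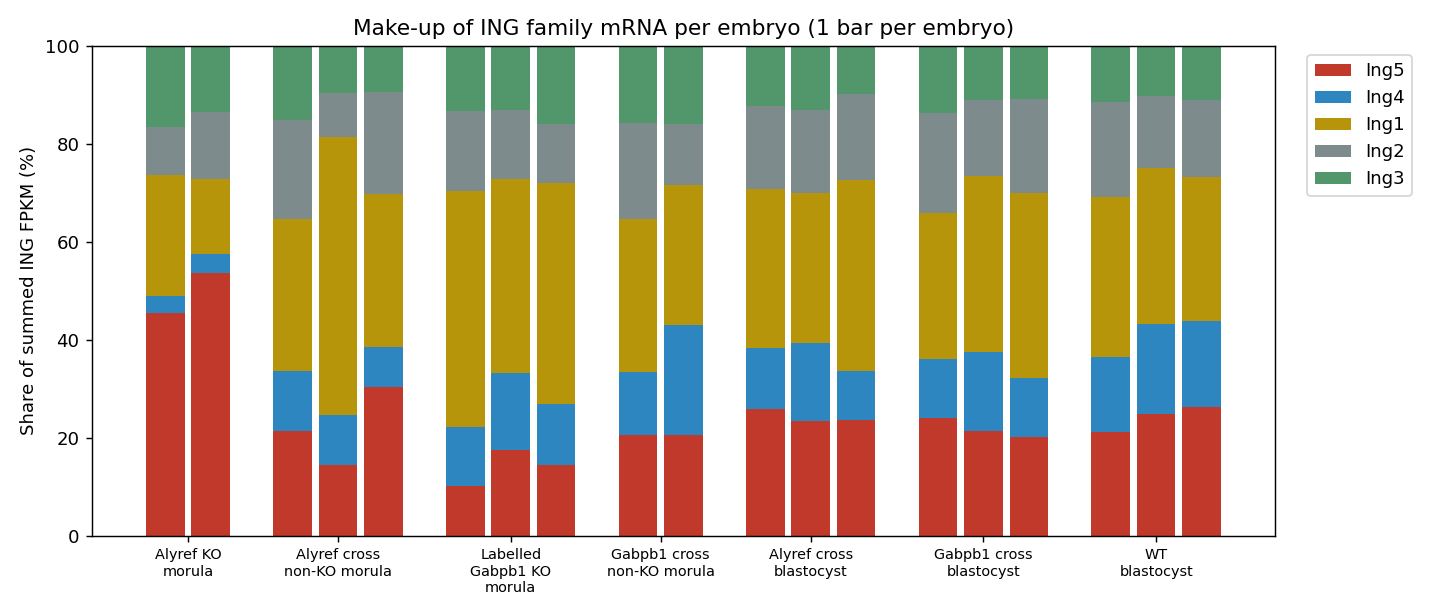
Share of summed ING family FPKM (vertical axis, percent) held by each of the 5 ING genes, stacked by colour, with 1 bar an embryo and embryos ordered by group (horizontal axis). Ing5 holds 45.5% and 53.7% in the 2 Alyref KO morulae and at most 30.4% in any other embryo.

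Among the acetyltransferases and scaffolds, the differences between Alyref KO and non-KO morulae lay in both directions. Kat7, the HBO1 enzyme, was at 109 and 63.4 CPM in the KO embryos and at 144, 124 and 107 CPM in the non-KO morulae. The groups overlapped and the log2 fold change was -0.53, with -0.98 without KO embryo 1 and -0.21 without KO embryo 2. Kat6a, the MOZ enzyme, and Brpf1, its scaffold, overlapped between groups with log2 fold changes of 0.07 and -0.10. Jade1, the scaffold of the H4-directed form of HBO1, was at 19.4 and 17.7 CPM against 45.6, 38.0 and 39.1 CPM. Both KO values were below all 17 other embryos, whose lowest was 1.10 times the higher KO value, and the log2 fold change was -1.14. Meaf6, the shared small subunit, was at 64.9 and 65.2 CPM against 50.0, 50.4 and 40.5 CPM, with a log2 fold change of 0.47. Its KO values were above all others by a margin of only 1.01 times, since a morula labelled Gabpb1 KO reached 64.3 CPM. Within the Alyref cross, the trophectoderm sum was 719 to 1581 CPM in KO and 654 to 2089 CPM in non-KO morulae, and the sum of 7 epiblast genes was 665 to 710 CPM and 617 to 732 CPM. Both sums overlapped between the groups.

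The Gabpb1 cross was not used in the choice, and its test applies to all 10 genes. In the 3 morulae labelled Gabpb1 KO, Ing5 was at 21.2, 26.7 and 24.8 CPM. The 2 non-KO morulae held 32.2 and 23.7 CPM, so the groups overlapped. The log2 fold change was -0.21 (SE 0.22, 95% interval -0.63 to 0.22, edgeR quasi-likelihood adjusted p = 0.637). Ing1 had the largest fold of the 10: it was at 72.7, 43.6 and 56.3 CPM in the labelled KO morulae and at 35.4 and 23.9 CPM in the non-KO morulae. The groups did not overlap, but the log2 fold change of 0.96 (SE 0.37, 95% interval 0.23 to 1.68) did not pass the test (edgeR quasi-likelihood adjusted p = 0.185). By edgeR 0 of the 10 were called, where 1.65% of all genes were. At an unadjusted p under 0.05 there was 1 of the 10, Ing1, beside 18.9% of all genes, and DESeq2 called 0. Of the 10, 1 had groups that did not overlap and was higher, where 15.8% of all genes were so arranged.

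Ing4 and Kat7, whose promoters hold the GABP-type motif shown above, had log2 fold changes of 0.03 (95% interval -0.47 to 0.53) and -0.21 (95% interval -0.79 to 0.36) in the labelled Gabpb1 KO morulae. Neither passed the test, with adjusted p-values of 0.964 and 0.727 by edgeR. Jade1 and Meaf6 were split among the 3 labelled KO embryos: Jade1 was at 56.9, 21.3 and 25.9 CPM and Meaf6 at 29.9, 60.5 and 64.3 CPM. The embryo with high Jade1 was the one with low Meaf6. The non-KO morulae of the cross were alike, with Jade1 at 40.1 and 40.3 CPM and Meaf6 at 39.6 and 39.0 CPM. The trophectoderm sum was 2634, 349 and 1058 CPM in the 3 labelled KO embryos and 4555 and 2688 CPM in the non-KO morulae. The groups lay apart only by the narrow step from 2634 to 2688 CPM. The labelled KO embryo with the highest sum was the one with high Jade1 and low Meaf6. The part of this sum in these values was not tested. The epiblast sum was 397 to 510 CPM and 214 to 400.4 CPM, with overlap.

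All embryos were collected at 96 h, so in either cross stage and pace of development cannot be told apart. Between non-KO morulae and blastocysts of the Alyref cross, 2402 genes differed in all, 13% of those tested. None of the 9 partners passed this test by edgeR, 1 had an unadjusted p under 0.05, beside 31.1% of all genes, and DESeq2 called 0. That gene was Meaf6, at 50.0, 50.4 and 40.5 CPM in morulae and 33.7, 32.5 and 28.5 CPM in blastocysts. All 3 blastocysts were below all 3 morulae, with a log2 fold change of -0.57 (SE 0.23, 95% interval -1.03 to -0.12, edgeR adjusted p = 0.107). Kat6a was arranged the same way with a log2 fold change of -0.40 (adjusted p = 0.459 by edgeR), which makes 2 of 10 lower without overlap, where 19.2% of all genes were. Ing5 shares its morulae here with the comparison that chose it, and its blastocyst values of 37.6, 34.3 and 37.2 CPM lie inside the range of those morulae. The trophectoderm sum was at most 2089 CPM in these morulae and at least 4735 CPM in the blastocysts. The epiblast sum was 617 to 732 CPM in these morulae and 303 to 382 CPM in the blastocysts, also without overlap, and the part of either was not tested.

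In the Gabpb1 cross, Ing5 was at 35.6, 32.2 and 32.4 CPM in blastocysts, with a log2 fold change from morulae of 0.26 (SE 0.22, 95% interval -0.18 to 0.69, edgeR adjusted p = 0.877). None of the 10 genes passed here by edgeR, and none had an unadjusted p under 0.05 or was called by DESeq2, where 0% of all genes were called by edgeR and 6.72% had such a p. The difference between crosses in the contrast of blastocysts with morulae called 0.00543% of all genes and none of the 9 partners. At an unadjusted p under 0.05 there were 0 of the 9, beside 13.8% of all genes, and DESeq2 called 0. The largest such difference among them was that of Ing1, 0.83 on the log2 scale (SE 0.49, edgeR adjusted p = 0.457).

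Morulae that are non-KO were also compared between the crosses, where 1.86% of all genes were called by edgeR. None of the 9 partners was called by edgeR or DESeq2, and none had an unadjusted p under 0.05, beside 22.4% of all genes. The largest difference was that of Ing1, -0.77 on the log2 scale (95% interval -1.49 to -0.05, edgeR adjusted p = 0.227). Ing1 averaged 29.7 CPM in the Gabpb1 cross, the lowest of the 7 groups, and 50.7 CPM in the Alyref cross, with overlap. Labelled Gabpb1 KO morulae averaged 57.5 CPM. Ing4 lay higher in the Gabpb1 cross without overlap, with a log2 difference of 0.39 (95% interval -0.10 to 0.89), and Meaf6 lower, with -0.26 (95% interval -0.77 to 0.25). That is 1 of 10 in each direction, where 17.9% and 18.2% of all genes were so arranged. The 2 groups also lay apart in the trophectoderm sum, at 654 to 2089 CPM in the Alyref cross and 2688 to 4555 CPM in the Gabpb1 cross, and in the epiblast sum, at 617 to 732 CPM and 214 to 400.4 CPM. The part of these in the values was not tested.

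The blastocysts of the 3 crosses were set against each other to see whether non-KO embryos of heterozygous parents differ from WT. Ing5 was at 34.5, 36.6 and 36.0 CPM in WT blastocysts. The log2 difference was 0.03 (95% interval -0.36 to 0.41) for the Alyref cross and -0.10 (95% interval -0.48 to 0.29) for the Gabpb1 cross, with edgeR adjusted p-values of 1 and 0.973. Both comparisons use the same 3 WT embryos. In neither was any of the 10 called by edgeR or DESeq2. None had an unadjusted p under 0.05 either, beside 2.94% of all genes for the Alyref cross and 6.1% for the Gabpb1 cross, and edgeR called 0% of all genes in both. Kat7 lay higher and Ing4 lower than WT without overlap in the Alyref cross, 1 of 10 in each direction, where 6% and 6.15% of all genes were so arranged. Jade1 was uneven among WT blastocysts, at 88.3, 46.0 and 33.5 CPM. The sum of 5 primitive endoderm genes was 234 to 271 CPM in WT blastocysts. In the Alyref cross it was 124 to 171 CPM and in the Gabpb1 cross 139 to 212 CPM, both without overlap with WT. The trophectoderm and epiblast sums of each cross overlapped those of WT, and the part of any sum in the values was not tested. In order of mean level, Ing5 was highest in Alyref KO morulae, and no other group overlapped them. The 6 groups that followed, from non-KO Alyref cross morulae at 36.9 ± 9.39 CPM (SD, n = 3) to labelled Gabpb1 KO morulae at 24.2 ± 2.82 CPM (SD, n = 3), each overlapped the next. Groups further apart in this order did not all overlap. Labelled Gabpb1 KO morulae, at 21.2 to 26.7 CPM, lay below all 9 blastocysts, at 32.2 to 37.6 CPM, and this was not tested.

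**Figure D4:**
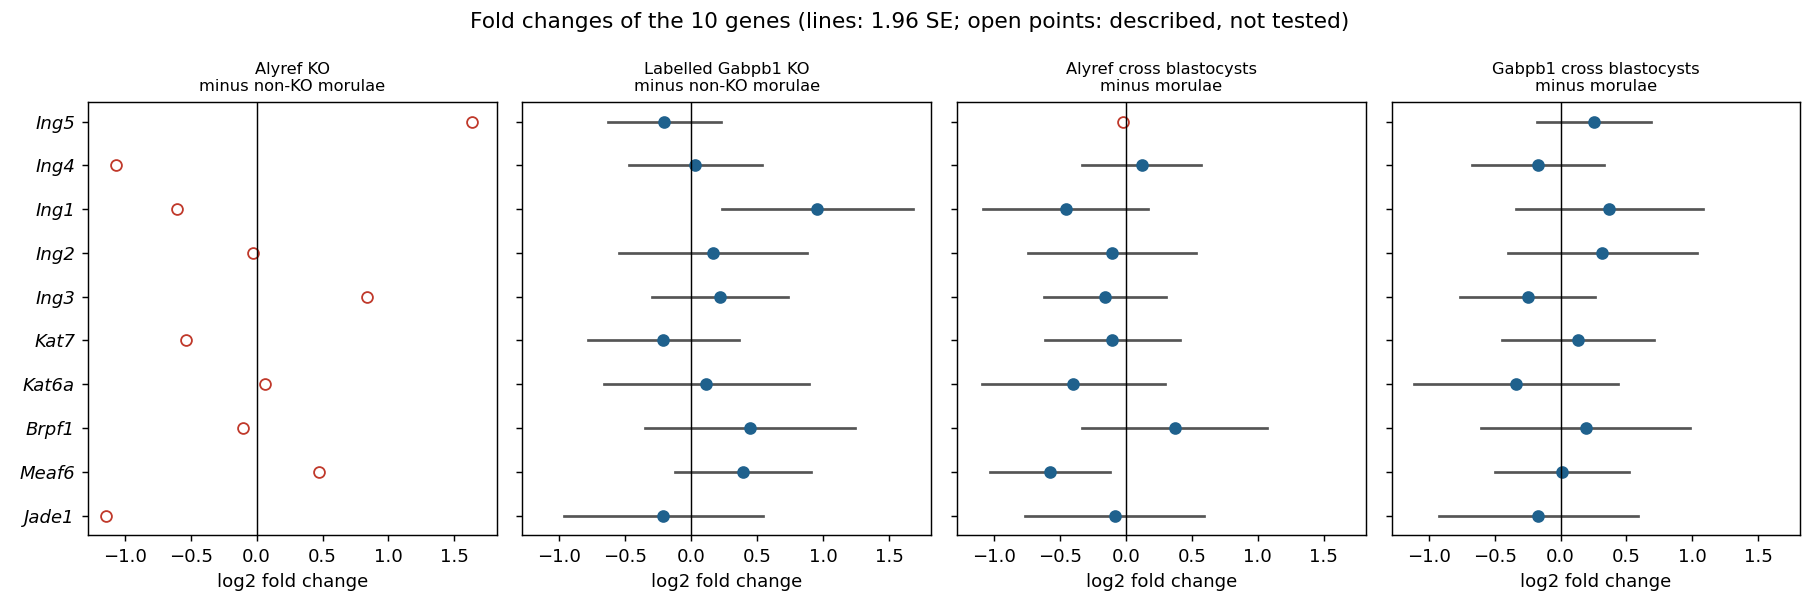
Fitted log2 fold change of each of the 10 genes (horizontal axis) in 4 comparisons, with lines for 95% intervals; open points without a line are described and not tested, since their embryos entered the choice of genes. For Alyref KO the points run from -1.14 for Jade1 to 1.64 for Ing5, and Ing1 in the labelled Gabpb1 KO morulae, at 0.96, and Meaf6 between the Alyref cross stages, at -0.57, are the drawn intervals that leave 0 out.

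The genes most like Ing5 across the embryos were taken by Pearson r of log2 CPM over all 19. They were Phax, an adaptor for nuclear export of small nuclear RNAs (r = 0.89), Use1, a SNARE of the endoplasmic reticulum (0.89), Zcchc9 (0.85), Gm26596 (0.83) and Snx5, a sorting nexin (0.83). Without the 2 Alyref KO morulae their r was 0.54, 0.67, 0.50, 0.54 and 0.47. The likeness thus rests to a large part on those 2 embryos. Over the 14 embryos outside the Alyref cross morulae, the leading genes were others: Dis3l2, an RNA exonuclease (0.96), Prelid3b (0.95), Cnn2 (0.94), Gm7785 (0.93) and Yae1d1 (0.93).

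The wider set held 64 genes of the complexes around these members, of which 62 were tested. Jade2, a further scaffold, reached at most 0.116 FPKM, and Kmt2d, an H3 lysine 4 methyltransferase, at most 0.866 FPKM, so both fell under the filter. In Alyref KO morulae 0 of the 62 were called by edgeR, where 0.228% of all genes were. An unadjusted p under 0.05 was found for 10, beside 12.1% of all genes. DESeq2 called 2, where it called 432 of all 18410. The other subunits of the HBO1 and MOZ/MORF complexes, Kat6b, Brd1, Brpf3 and Jade3, had a median log2 fold change of -0.22 there. The median over all genes tested was -0.04. The 16 genes of TIP60, the complex of Ing3, had a median of 0.10. For the 15 genes of SIN3-HDAC, the complex of Ing1 and Ing2, it was -0.06.

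In the labelled Gabpb1 KO morulae 1 of the 62 was called, 1.61% where 1.65% of all genes were. It was Mbtd1, a methyl-lysine reader of TIP60, at 59.5 ± 13.8 CPM (SD, n = 3) against 14.6 ± 4.80 CPM (SD, n = 2), with a log2 fold change of 2.03 (SE 0.46, edgeR adjusted p = 0.0435). The call was lost without labelled KO embryo 2 (adjusted p = 0.0851 by edgeR), labelled KO embryo 3 (0.0568), non-KO embryo 1 (0.211) or non-KO embryo 2 (0.166), with the compared groups alone (0.319) and with ERCC scaling (0.479).

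Between the stages of the Alyref cross 6 of the 62 were called, 2 higher and 4 lower in blastocysts, 9.68% where 13% of all genes were. Kat6b, the MORF enzyme and paralog of Kat6a, was at 38.3 ± 9.43 CPM in morulae and 75.3 ± 7.40 CPM in blastocysts (SD, n = 3 each). Its log2 fold change was 0.98 (edgeR adjusted p = 0.0275). Sin3b, the SIN3 scaffold, was at 137 ± 38.3 CPM in morulae and 255 ± 18.9 CPM in blastocysts. Kat8, the MOF acetyltransferase, was at 53.7 ± 17.1 CPM in morulae and 22.2 ± 3.66 CPM in blastocysts (log2 fold change -1.27, edgeR adjusted p = 0.0125). Wdr5 is a core subunit of H3 lysine 4 methyltransferases and of the NSL complex. It was at 288 ± 35.7 CPM in morulae and 120 ± 9.73 CPM in blastocysts. Sap30 and Sap30l, SIN3-HDAC subunits, were lower in blastocysts by 1.98 and 0.71 on the log2 scale. All 6 calls were lost without morula 2 of the cross, with adjusted p-values of 0.0643 to 0.214 by edgeR, and without blastocyst 1, with adjusted p-values of 0.0525 to 0.131. Leaving out morula 1, morula 3, blastocyst 2 or blastocyst 3 ended some of them, and all 6 were lost with the compared groups alone or with ERCC scaling. Without the filter on low values Sap30l was lost (adjusted p = 0.191 by edgeR). In the Gabpb1 cross 0 of the 62 were called between stages by edgeR, where 0% of all genes were. At an unadjusted p under 0.05 there were 5, beside 6.72% of all genes, and DESeq2 called 0. The difference between crosses passed for none of them, where it passed for 0.00543% of all genes.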

How the data were processed

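PolyA RNA libraries of 19 single embryos were analysed, 1 embryo each. Per the submitters' processing notes, reads were handled with Trimmomatic, Trim Galore, cutadapt, STAR and featureCounts on mm10; versions, annotation and the strand setting are not given in the sources used here. The authors deposited 1 table of raw counts per gene, although its name announces FPKM, together with a merged exon length in bases as another deposited column. The design had assumed FPKM and limma, so the test for counts was used in its place. ERCC spike-in rows (92) were kept out of library sizes. FPKM was derived here from those counts and lengths, and 18410 genes with FPKM of at least 1 in at least 2 embryos were tested. edgeR 4.0.16 (R 4.3.3) was used on all 19 embryos together, with a mean for each of the 7 groups, with TMM scaling and the quasi-likelihood F test, and p-values were adjusted by Benjamini-Hochberg over all genes tested, with a threshold of 0.05. Standard errors are the log2 fold change over the root of F, and 95% intervals are 1.96 of these on each side. Such an interval is approximate and can leave 0 out where the unadjusted p of the F test is above 0.05. The script was tested on simulated data. Alternatives were DESeq2 1.42.0, no filter, the compared groups alone, ERCC scaling, a replicate block and leaving out each embryo. A p-value sets a group difference against a spread between single embryos that was estimated over all 7 groups and partly shared across genes. Each group holds 2 or 3 embryos.

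The members and the wider lists of complex subunits were chosen with earlier results of these data known. Named genes are the 10 members, the genes most like Ing5 and the called genes of the wider lists. Coordinates of all 10 members equal those of GENCODE M21 on GRCm38. Where a gene overlaps another on the opposite strand, as Ing2, Brpf1 and Jade1 do over 1.52%, 3.76% and 3.41% of their exon bases, reads of the pair cannot be told apart without the strand setting.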

Additional observations from a re-analysis of the deposited data

How the results depend on the processing

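None of the 10 genes was called under any alternative in a comparison other than that of Alyref KO with non-KO morulae. In the Alyref KO comparison Ing5 kept its direction under all alternatives. Ing5 was chosen for that difference, and the comparison is a description without a test for all 10 genes. The kept direction of Ing5 and the calls of any member there are thus no support. In that comparison the number of members called, 1, became 2 with DESeq2 (Ing5 and Ing4), where 432 of all 18410 genes were called. With the compared groups alone or with ERCC scaling it became 0, where 0 of all genes were called. Leaving out non-KO embryo 1 gave 0 members and 0 of all genes, and leaving out non-KO embryo 3 gave 2 members and 128 of all genes. The log2 fold change of Ing5 between labelled Gabpb1 KO and non-KO morulae ran from -0.41 to 0.034 when an embryo was left out, turning without non-KO embryo 1, and that between stages of the Gabpb1 cross turned to -0.62 with ERCC scaling. Under that scaling all tested genes had a median of -0.86 in this comparison, -0.40 for Gabpb1 KO, -0.34 for the Alyref cross stages, -0.53 for the stage difference, 0.39 for non-KO morulae between crosses and 0.15 for Alyref cross against WT blastocysts. The signs for Ing2, Kat6a and Brpf1 in Alyref KO morulae turned when single embryos were left out.

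Counts of genes called over the whole table moved more, and the cause was not tested. With DESeq2 they were 432 for Alyref KO (42 with edgeR), 1212 for Gabpb1 KO (303), 3647 for the Alyref cross stages (2402), 48 for the Gabpb1 cross stages (0), 259 for the stage difference (1), 1552 for non-KO morulae between crosses (342), and 15 and 39 for Alyref and Gabpb1 cross against WT blastocysts (0 each). With the compared groups alone they were 0 for both KO comparisons, 24 for the Alyref cross stages, 0 for the stage difference and 0 between crosses. With ERCC scaling they were 0, 26, 352 and 2 for Alyref KO, Gabpb1 KO, the Alyref cross stages and non-KO morulae between crosses. Without the filter they were 13 for Alyref KO, 8 for the stage difference and 1 for Gabpb1 cross against WT blastocysts. Leaving out an embryo gave 0 to 128 for Alyref KO, 48 to 966 for Gabpb1 KO, 346 to 4560 and 0 to 6 for the stages, 0 to 702 for their difference, 0 to 2435 between crosses, and 0 to 1 for each comparison with WT.

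With the replicate number as a block, 8 genes were called for Alyref KO, 266 for Gabpb1 KO, 2013 for the Alyref cross stages, 0 for the stage difference and 327 between crosses, and the calls among the members did not change. Of the 6 genes of the wider lists called between the Alyref cross stages, the block ended the calls of Sap30 (edgeR adjusted p = 0.0534) and Sap30l (0.0575). The numbers do not pair the embryos: deviations of same-numbered embryos correlated at -0.16 to 0.17 over 17 pairs, with 4 over 0.1, and 7 of 19 embryos correlated best with their own number.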

Other observations

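Ratios between members were also taken in each embryo, a choice made after their values were seen. The ratio of Ing5 to Ing4 in CPM was 11.8 and 12.6 in the 2 Alyref KO morulae and 0.75 to 3.32 in the other 17 embryos. The ratio of Meaf6 to Jade1, the small subunit and the scaffold of HBO1, was 3.35 and 3.67 in the Alyref KO morulae. It was 0.525, 2.84 and 2.48 in the 3 morulae labelled Gabpb1 KO and at most 1.33 in all others. Both ratios were picked from values of the Alyref KO morulae, which also set the choice of Ing5. No cut for a high ratio was set, and no pattern of KO embryos is read from them. Differences between the groups were not tested.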
